A study of Homo sapiens with 8 samples.

Results

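The kinases that phosphorylate splicing factors were followed in SQ20B cells kept at 2 oxygen levels. The group holds 8 genes, namely the CDC-like kinases CLK1, CLK2, CLK3 and CLK4, the SR protein kinases SRPK1 and SRPK2, the pre-mRNA processing kinase PRPF4B and the dual-specificity kinase DYRK1A. They were chosen by gene name, and every listed RefSeq transcript of these genes was taken, which gave 17 of the 24812 transcripts in the deposited table, from 8 of its 14528 named genes. Of the 17, 14 carried a coding (NM) identifier and 3 a noncoding (NR) identifier.

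SQ20B is an established line from a human head and neck squamous cell carcinoma. RNA was sequenced from 4 biological replicates in normoxia and 4 replicates in hypoxia, where the cells spent 16 h at 0.5% O2. Both groups were the same line, so a single tumor line is the only model here. The authors' table gives 1 FPKM value for each transcript and condition, computed over the replicates (FPKM counts fragments relative to transcript length and sequencing depth), with no value for a single replicate. The table also carries the authors' own test of each transcript, which was not used here. No test of replicate spread was made from the FPKM values, and each difference below is a difference between these 2 values.

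Splicing kinases add phosphate groups to the arginine- and serine-rich domains of SR proteins, the factors that mark exons for the spliceosome. SRPK1 and SRPK2 work mainly in the cytoplasm, where phosphorylation lets SR proteins enter the nucleus through transportin, and the CLKs work in the nucleus, where further phosphorylation releases SR proteins from nuclear speckles to sites of transcription. PRPF4B belongs to the spliceosome itself and phosphorylates proteins of the tri-snRNP, and DYRK1A is a nuclear kinase of the same larger kinase family with substrates in splicing, the cell cycle and transcription. The CLK genes are also known for regulating their own splicing, by skipping an exon or keeping introns, which gives RNAs that make no active kinase.

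That alternative exon, exon 4, is printed here for the 4 CLK genes because it is the exon these genes are known to skip, and the noncoding share of CLK1 is a main difference described below. The sequences were read from the GRCh37 genome, 5′ to 3′ on the strand of the gene, with 20 intron bases before and 10 after. Capitals mark the exon, which lies inside the coding sequence of each gene in the GENCODE annotation, at chr2:201724848-201724938 on the minus strand for CLK1, chr1:155238499-155238586 on the minus strand for CLK2, chr15:74914461-74914557 on the plus strand for CLK3 and chr5:178044345-178044435 on the minus strand for CLK4.
CLK1: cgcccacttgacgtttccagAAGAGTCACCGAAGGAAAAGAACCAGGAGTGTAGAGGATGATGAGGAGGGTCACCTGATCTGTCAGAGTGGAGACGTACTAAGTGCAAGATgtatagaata
CLK2: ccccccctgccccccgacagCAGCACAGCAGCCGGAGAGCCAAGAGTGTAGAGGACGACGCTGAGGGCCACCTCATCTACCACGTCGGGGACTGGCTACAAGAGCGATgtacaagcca
CLK3: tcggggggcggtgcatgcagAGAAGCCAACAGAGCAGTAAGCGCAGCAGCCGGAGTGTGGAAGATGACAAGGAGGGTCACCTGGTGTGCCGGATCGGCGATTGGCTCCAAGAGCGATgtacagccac
CLK4: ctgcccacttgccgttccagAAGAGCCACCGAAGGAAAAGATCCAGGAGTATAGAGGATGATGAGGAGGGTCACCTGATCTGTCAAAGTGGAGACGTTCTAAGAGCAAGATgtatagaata

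The exons measured 91, 88, 97 and 91 bases in CLK1, CLK2, CLK3 and CLK4. Each length leaves a remainder of 1 when divided by 3, so that leaving the exon out shifts the reading frame in all 4 genes. The exons of CLK1 and CLK4 shared 85 of 91 bases (93.4%). In each gene the exon ended in T before an intron that began with gt and followed an intron that ended in ag. GENCODE lists a model that leaves out exon 4 in CLK1 (CLK1-204, annotated as a target of nonsense-mediated decay), in CLK2 (CLK2-205) and in CLK3 (CLK3-209 and CLK3-225), and models that keep introns 3 and 4 in CLK1 (CLK1-210), CLK3 (CLK3-226) and CLK4 (CLK4-203). Of the 14 GENCODE models of CLK1, 8 are annotated as retained-intron RNAs and 2 as targets of nonsense-mediated decay. Which of these models each noncoding RefSeq transcript of the table corresponds to was not established here, and the values below are given by RefSeq identifier.

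In these cells the CLK genes were higher in hypoxia and SRPK1 was lower, while SRPK2, PRPF4B and DYRK1A stood near their normoxic values. Summed over their transcripts, CLK1, CLK3 and CLK4 passed a 1.5-fold difference upwards and no gene of the group passed it downwards. Changes are given as the log2 ratio of FPKM + 0.1 in hypoxia over normoxia, for genes with a mean of at least 0.5 FPKM. Past 1.5-fold, 9.95% of the 12106 genes above that level were higher and 11.2% were lower, and 3 of 8 kinases were higher and 0 of 8 lower. The median change of the 8 kinases was 0.27, beside -0.07 over all of these genes. Of the kinases, 6 were above 0 and 2 below, beside 5275 and 6831 of all 12106 genes. Because the 8 genes were chosen with results of these data known, these counts describe the group and do not test it.

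**Figure D1:**
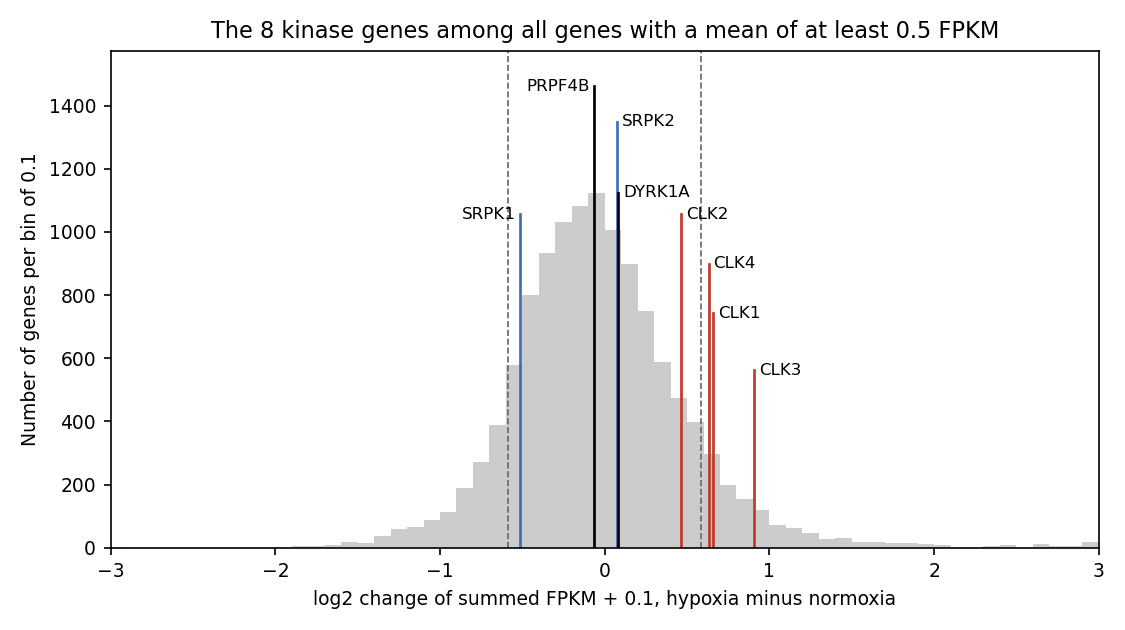
The grey bars count the genes with a mean of at least 0.5 FPKM by their log2 change of summed FPKM + 0.1 (hypoxia minus normoxia, bins of 0.1, with values beyond the axis put in the outermost bins), the dashed lines mark 1.5-fold, and the vertical lines mark the 8 kinases in red (CLK genes), blue (SRPK genes) and black (PRPF4B and DYRK1A). Line heights only separate the names. The 4 CLK genes lie to the right, from 0.46 to 0.90, and SRPK1 lies to the left at -0.51.

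CLK1, a nuclear kinase that releases SR proteins from speckles, was the most abundant CLK in both conditions, also with coding transcripts alone. Its summed level was 46.9 FPKM in normoxia and 74.2 FPKM in hypoxia, a log2 change of 0.66 (1.58-fold). That change stood at percentile 91.8 of all genes compared. CLK1 was also the only gene of the group that was mostly noncoding in the table. Only CLK1 and SRPK1 had a noncoding transcript analysed. The CLK1 gene lies on the minus strand at chr2:201717732-201729467 (hg19), the span given for all 4 of its transcripts. GENCODE also annotates retained-intron RNAs in CLK3 (8 of 27 models) and CLK4 (7 of 13 models). No noncoding identifier was analysed for CLK3 or CLK4, so a noncoding share could not be read for them.

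The CLK1 difference was unequal between its transcripts. The noncoding transcript NR_027856 was at 22.2 FPKM in normoxia and 41.6 FPKM in hypoxia, a log2 change of 0.90 (1.87-fold). The main coding transcript NM_004071 was at 20.9 FPKM in normoxia and 27.7 FPKM in hypoxia, a log2 change of 0.41 (1.32-fold). Both were therefore close together in normoxia and apart in hypoxia. The noncoding NR_027855 was at 3.70 and 4.75 FPKM (log2 change 0.35), and the coding NM_001162407 was at 0.0975 and 0.111 FPKM, below the level at which changes were read. Noncoding transcripts together gained 20.4 FPKM (1.78-fold) and coding transcripts 6.83 FPKM (1.32-fold), so that with coding transcripts alone CLK1 did not reach 1.5-fold (log2 change 0.40).

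As a share of the gene's FPKM, the noncoding transcripts of CLK1 held 55.2% in normoxia and 62.5% in hypoxia, a difference of 7.24 percentage points. NR_027856 alone went from 47.3% to 56.1%, while NM_004071 went from 44.6% to 37.4% and NR_027855 from 7.89% to 6.40%. For comparison, 773 genes with a mean of at least 0.5 FPKM and detected in both conditions had both kinds of transcript. Their median noncoding share was 8.29% in normoxia. The share was higher in hypoxia in 391 of these (50.6%), and 53 of them (6.86%), CLK1 included, had a difference at least as large as that of CLK1. A difference in points depends on the starting share, and that of CLK1 was far above the median. By the summed FPKM of its noncoding transcripts in hypoxia, CLK1 ranked 4 among the 773 genes. Cufflinks divides reads among overlapping transcripts of a gene by a model, so these shares are estimates that rest on the reads that tell the transcripts apart.

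**Figure D2:**
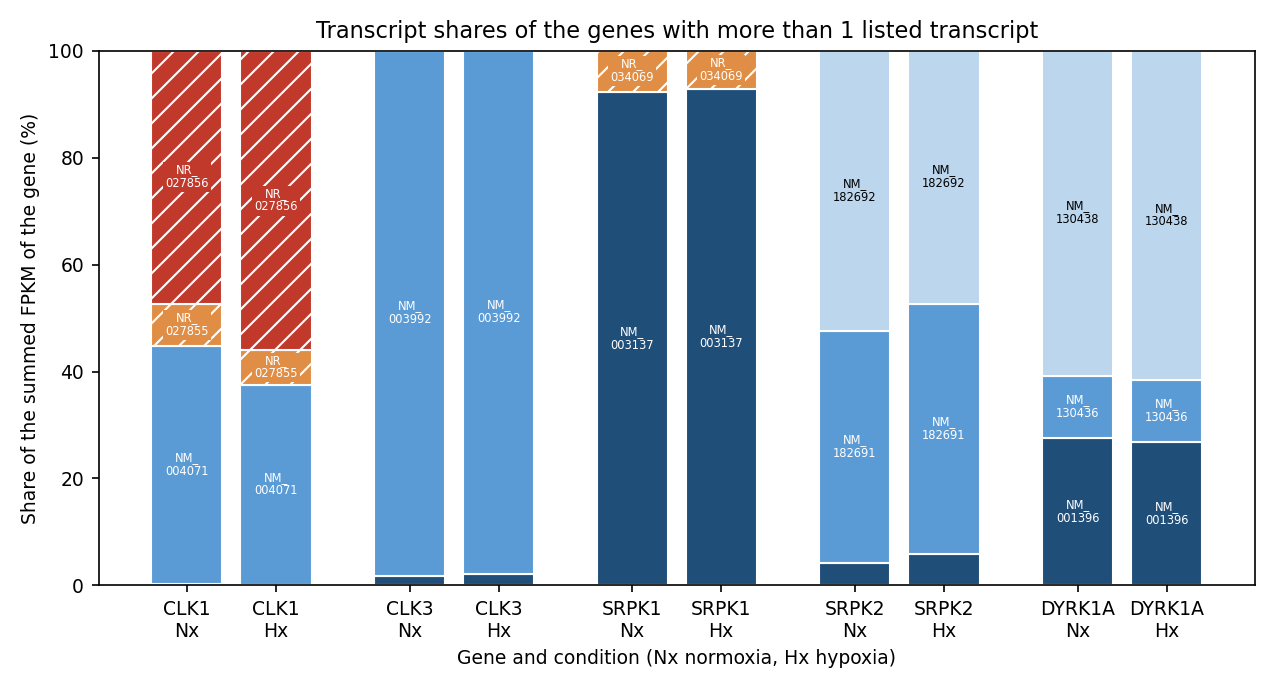
Stacked bars give the share of each listed transcript in the summed FPKM of its gene (%) in normoxia (Nx) and hypoxia (Hx), for the 5 genes with more than 1 listed transcript; hatched orange and red mark noncoding (NR) transcripts and plain blue marks coding (NM) ones, and shares under 6% carry no name. In CLK1 the hatched part is 55.2% in normoxia and 62.5% in hypoxia, and in SRPK1 it is 7.71% and 7.20%.

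CLK3 had the largest fold of the 8 genes. Its summed level was 10.3 FPKM in normoxia and 19.4 FPKM in hypoxia, a log2 change of 0.90 (1.87-fold, percentile 95.9 of all genes compared). Nearly all of it came from the coding transcript NM_003992, at 10.1 FPKM in normoxia and 19.0 FPKM in hypoxia. The second coding transcript, NM_001130028, was at 0.178 and 0.422 FPKM, below the level read for changes. The locus lies on the plus strand at chr15:74900713-74922542. No noncoding CLK3 transcript was analysed here, and the exon 4 content of the listed transcripts was not established.

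CLK4, the closest relative of CLK1, had a single listed transcript, the coding NM_020666 at chr5:178029665-178054054. It was at 11.0 FPKM in normoxia and 17.1 FPKM in hypoxia, a log2 change of 0.63 (1.55-fold, percentile 91.1), just past the 1.5-fold line. CLK2, whose product also phosphorylates SR proteins in the nucleus, was the least abundant gene of the group. Its coding transcript NM_003993, at chr1:155232659-155243281, was at 5.40 FPKM in normoxia and 7.48 FPKM in hypoxia. That is a log2 change of 0.46 (1.38-fold, percentile 85.8), which did not reach 1.5-fold. All 4 CLK genes thus had the higher value in hypoxia. GENCODE lists pseudogenes of CLK2 and CLK3, and of SRPK2 and PRPF4B described below, and reads shared with such copies would make the levels of these genes uncertain.

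SRPK1, the main cytoplasmic SR protein kinase, was the most abundant of the 8 genes in normoxia and the gene with the lowest fold in hypoxia. Its summed level was 85.8 FPKM in normoxia and 60.1 FPKM in hypoxia, a log2 change of -0.51 (1.43-fold lower, percentile 14.7 of all genes compared), which did not reach 1.5-fold. In normoxia its level stood above 90.8% of the genes compared. Both of its transcripts, at chr6:35800811-35888957 on the minus strand, were lower. The coding NM_003137 was at 79.2 FPKM in normoxia and 55.8 FPKM in hypoxia (log2 change -0.50), and the noncoding NR_034069 was at 6.61 and 4.33 FPKM (log2 change -0.60, 1.52-fold lower). The noncoding share of SRPK1 was 7.71% in normoxia and 7.20% in hypoxia, a difference of -0.51 percentage points beside 7.24 for CLK1. The share of CLK1 in normoxia was 55.2%, so the points of the 2 genes start from unlike levels and are not directly comparable.

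SRPK2, the second SR protein kinase, was at 21.7 FPKM in normoxia and 22.8 FPKM in hypoxia (log2 change 0.07). Its 3 coding transcripts, at chr7:104756821-105029377, did not all differ in the same direction. NM_182692 was at 11.3 and 10.8 FPKM (log2 change -0.07), NM_182691 at 9.43 and 10.7 FPKM (0.18), and NM_001278273 at 0.887 and 1.35 FPKM (0.55). NM_182692 held 52.4% of the gene in normoxia and 47.3% in hypoxia, and NM_182691 held 43.5% and 46.7%. The transcript with the highest share was the same in both conditions, with a narrower lead in hypoxia.

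PRPF4B, the spliceosomal kinase, was at 31.4 FPKM in normoxia and 30.1 FPKM in hypoxia through its only listed transcript, NM_003913, at chr6:4021569-4065217 on the plus strand. Its log2 change of -0.06 lay close to the median of all genes, and its sign depended on the scaling: it was 0.16 after both columns were set to equal sums. DYRK1A was at 24.0 FPKM in normoxia and 25.4 FPKM in hypoxia (log2 change 0.08). Its 3 coding transcripts, at chr21:38739859-38887679 on the plus strand, kept nearly the same shares, with NM_130438 at 60.8% and 61.6% of the gene. NM_130438 was at 14.6 and 15.6 FPKM, NM_001396 at 6.59 and 6.78 FPKM, and NM_130436 at 2.81 and 2.96 FPKM.

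Among single transcripts, 3 of the 15 with a mean of at least 0.5 FPKM were past 1.5-fold higher (NR_027856 of CLK1, NM_003992 of CLK3 and NM_020666 of CLK4) and 1 was past it lower (NR_034069 of SRPK1). Over all 18190 transcripts at that level, 10.5% were higher and 14.3% lower. The median change of the 15 was 0.18, beside -0.09 over all transcripts. The call of NR_034069 rested on the scale, since it was not past 1.5-fold with 1 added to each FPKM or under any of the 3 other scalings of the columns.

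**Figure D3:**
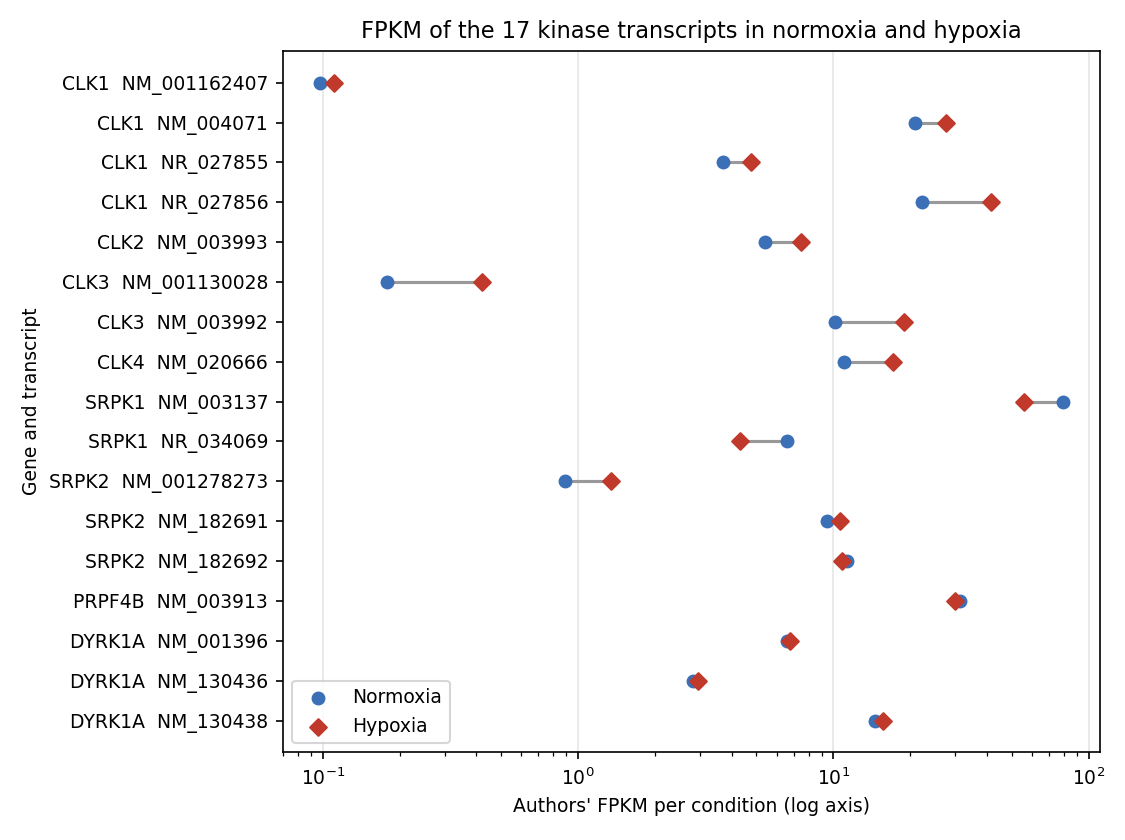
Each line joins the authors' FPKM (log axis) of 1 transcript in normoxia (blue circle) and hypoxia (red diamond), for the 17 kinase transcripts grouped by gene; there is 1 value per condition and no error bar can be drawn. The widest gaps above 0.5 FPKM are those of NR_027856 of CLK1 (22.2 to 41.6 FPKM) and NM_003992 of CLK3 (10.1 to 19.0 FPKM), and both SRPK1 transcripts have the red diamond on the left.

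In FPKM, which is a level per length, and with all transcripts summed, the order of the genes in normoxia was SRPK1, CLK1, PRPF4B, DYRK1A, SRPK2, CLK4, CLK3 and CLK2. In hypoxia CLK1 stood first with 74.2 FPKM, ahead of SRPK1 with 60.1 FPKM, and CLK3 stood above CLK4. With coding transcripts alone SRPK1 stood first in hypoxia with 55.8 FPKM, followed by PRPF4B with 30.1 FPKM and CLK1 with 27.8 FPKM, and in normoxia CLK1 (21.0 FPKM) stood below SRPK2 (21.7 FPKM). With 1 value per condition, it is not known which neighbors in this order differ beyond replicate spread. The 4 CLK genes together were at 73.7 FPKM in normoxia and 118 FPKM in hypoxia (1.60-fold), and at 47.8 and 71.9 FPKM (log2 change 0.59) with coding transcripts alone. SRPK1 and SRPK2 together were at 107 and 82.9 FPKM. The ratio of CLK to SRPK FPKM was therefore 0.686 in normoxia and 1.43 in hypoxia over all transcripts, and 0.474 and 0.915 over coding transcripts. This ratio is taken within each column and does not depend on a scaling of the column by a constant. Over all 8 genes the sum was 237 FPKM in normoxia and 257 FPKM in hypoxia, and 204 and 206 FPKM with coding transcripts alone.

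**Figure D4:**
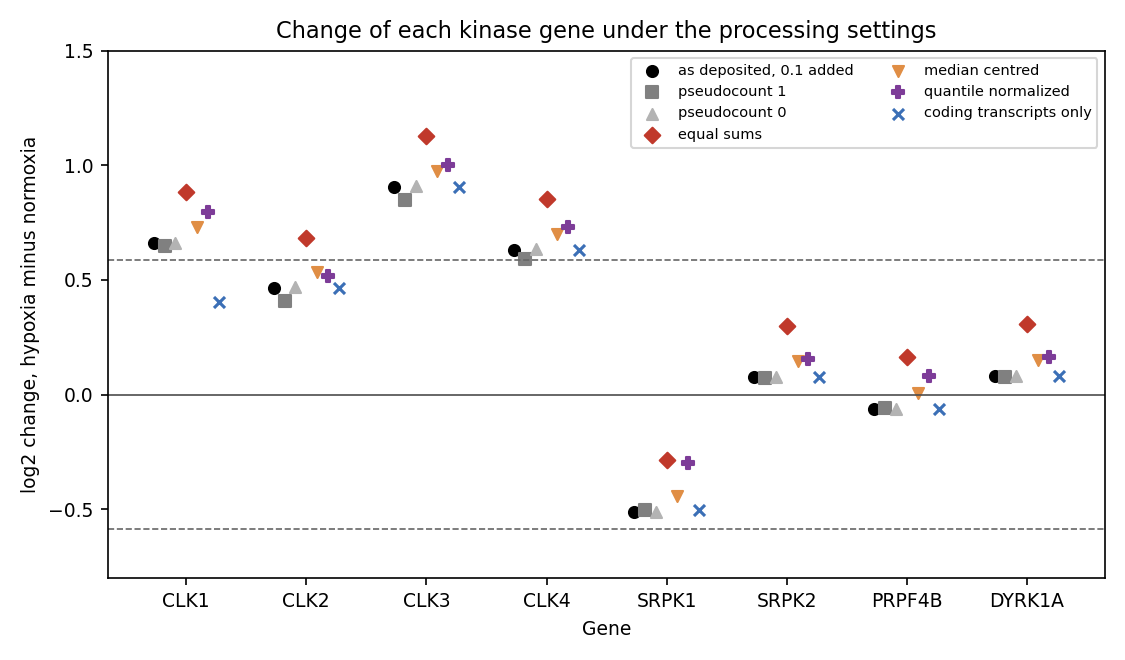
Log2 change of each kinase gene (hypoxia minus normoxia) as deposited with 0.1 added and under 6 other settings of the pseudocount, the scaling of the FPKM columns and the transcripts summed; dashed lines mark 1.5-fold and the solid line no change. CLK3 and CLK4 lie above the upper line in each setting shown, CLK1 drops to 0.40 with coding transcripts only, and PRPF4B is the only gene with values on both sides of 0.

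The FPKM column of hypoxia had the smaller sum, and scaling to equal sums is a shift of 0.23 on the log2 scale before the 0.1 is added. Under it 18.3% of all genes were past 1.5-fold higher and 4.94% lower, beside 9.95% and 11.2% as deposited, and CLK2 joined CLK1, CLK3 and CLK4 past 1.5-fold. SRPK1 stayed below 0 in each of the 9 settings of pseudocount, filter, scaling and transcripts summed, from -0.51 to -0.29, and the CLK genes stayed above 0, CLK3 from 0.85 to 1.13 and CLK4 from 0.59 to 0.86.

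The promoters of CLK1, CLK3, CLK4 and SRPK1 are printed because these genes had the largest differences in each direction. The sequences are the 250 bases before the main annotated start, from RefSeq on GRCh38.p14, 5′ to 3′ on the strand of the gene, a build other than the hg19 of the expression values. Capitals mark ACGTG or GCGTG on either strand (CACGT or CACGC when read on the gene's strand), the core letters of the element bound by the hypoxia-inducible factors. They lie at chr2:200864659-200864908 (CLK1, minus strand), chr15:74615586-74615835 (CLK3, plus strand), chr5:178627051-178627300 (CLK4, minus strand) and chr6:35921099-35921348 (SRPK1, minus strand).
CLK1: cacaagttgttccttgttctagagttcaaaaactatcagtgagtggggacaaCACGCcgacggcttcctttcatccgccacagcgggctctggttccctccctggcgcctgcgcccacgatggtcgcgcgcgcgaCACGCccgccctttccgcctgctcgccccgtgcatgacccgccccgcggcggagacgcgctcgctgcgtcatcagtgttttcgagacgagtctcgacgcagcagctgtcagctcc
CLK3: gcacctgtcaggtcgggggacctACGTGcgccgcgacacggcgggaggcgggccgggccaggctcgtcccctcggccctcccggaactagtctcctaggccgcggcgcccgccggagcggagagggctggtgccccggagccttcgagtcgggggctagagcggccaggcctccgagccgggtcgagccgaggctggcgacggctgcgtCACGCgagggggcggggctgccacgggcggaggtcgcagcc
CLK4: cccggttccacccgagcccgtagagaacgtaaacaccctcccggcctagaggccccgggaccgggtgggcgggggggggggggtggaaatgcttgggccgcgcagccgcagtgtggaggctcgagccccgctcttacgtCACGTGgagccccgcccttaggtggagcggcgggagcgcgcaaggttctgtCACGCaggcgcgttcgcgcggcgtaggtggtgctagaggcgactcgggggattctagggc
SRPK1: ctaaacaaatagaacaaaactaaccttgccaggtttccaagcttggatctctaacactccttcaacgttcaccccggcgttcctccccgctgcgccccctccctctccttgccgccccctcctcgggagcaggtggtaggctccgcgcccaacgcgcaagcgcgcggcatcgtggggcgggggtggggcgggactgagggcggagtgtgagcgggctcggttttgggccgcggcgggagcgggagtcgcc

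The promoter of CLK1 held 2 matches, both GCGTG. That of CLK3 held 1 ACGTG and 1 GCGTG, and that of CLK4 held 3 matches, of which 2 were ACGTG read on opposite strands of the same overlapping letters. No match was found in the windows before the main starts of SRPK1 and SRPK2. Counts differed between annotated starts of a gene, and the window of each other listed start of SRPK2 held 1 match. The window of PRPF4B held 1 match, that of CLK2 held 4 and that of DYRK1A, which differed little between conditions, held 4. In CLK2 and DYRK1A, as in CLK4, 2 of the matches were read on opposite strands of the same overlapping letters. Of 35116 promoter windows of the same length, not limited to main starts, 43.2% held at least 1 match and 7.76% held at least 3. A match is a description of the letters and does not show that a factor was bound.

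Most genes of the SR proteins, the substrates of the CLKs and SRPKs, had the lower RNA value in hypoxia. Of 13 with a mean of at least 0.5 FPKM, 6 were past 1.5-fold lower and 0 higher, with a median log2 change of -0.52, where 11.2% of all genes were lower and 9.95% higher. SRSF1, which binds exonic enhancers, was at 222 FPKM in normoxia and 120 FPKM in hypoxia (-0.89). SRSF6 was at 60.4 and 33.5 FPKM (-0.85), and SRSF7 at 106 and 59.3 FPKM (-0.84). TRA2B, SRSF3 and SRSF8 were the other three, and SRSF5, at 93.9 and 109 FPKM (0.21), was the only SR protein above 0; these 4 genes are named after their values were seen. With equal sums the median was -0.29, 4 SR proteins were past 1.5-fold lower, where 4.94% of all genes were lower, and 2 were above 0. These are RNA values, and protein was not measured here. For SRSF3 the paper reported repressed mRNA but more protein in hypoxic SQ20B cells.

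Kinases and cyclins related to the group had no gene past the line with the values as deposited. None of 12 with a mean of at least 0.5 FPKM, among them DYRK2, DYRK3, HIPK1, CDK12, CDK13 and the cyclins CCNL1 and CCNL2, was past 1.5-fold in either direction, beside 9.95% higher and 11.2% lower over all genes. Their median log2 change was 0.14, from -0.28 to 0.48. Of the 12, 9 were above 0 and 3 below, beside 5275 and 6831 of all 12106 genes. With equal sums the median was 0.36, 11 were above 0 and HIPK1 was past 1.5-fold higher, where 18.3% of all genes were higher. DYRK1B and HIPK2 were below the level read for changes.

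Phosphatases, which remove the phosphate groups, and the factors that carry or hold SR proteins had no gene past 1.5-fold among the 14 compared. Over all genes, 9.95% were higher and 11.2% lower. PPP2CA, named after its values were seen, came close to the line at 1.49-fold lower. The median of the 14 genes was -0.29, with 13 below 0, where 6831 of all 12106 genes were below 0. Under equal-sum scaling the median was -0.06, with 8 below 0. TNPO3, the transportin that imports phosphorylated SR proteins, was named after its values were seen: it was at 31.3 FPKM in both conditions.

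Proteins of the tri-snRNP, the particle that PRPF4B acts on, had 2 of 12 genes past 1.5-fold lower and 0 higher, with a median of -0.38, where 11.2% of all genes were lower and 9.95% higher. PRPF4 was at 53.0 FPKM in normoxia and 29.8 FPKM in hypoxia (-0.83), and PRPF3 was at 36.9 and 24.5 FPKM (-0.59), past the line by little. With equal sums PRPF3 was no longer past it, and PRPF8 and SNRNP200, named after their values were seen, were past it higher. At that setting 18.3% of all genes were higher and 4.94% lower, so 2 of 12 higher is close to the share of all genes. Among partners and targets of DYRK1A, 2 of 9 were higher and 2 lower, with a median of -0.07, which became 0.15 with equal sums. With so few genes, these counts are not far from the 9.95% and 11.2% of all genes. FOXO1, a transcription factor, was at 1.81 and 2.89 FPKM (0.65), and APP, the amyloid precursor, at 42.6 and 64.2 FPKM (0.59). LIN52, a subunit of the DREAM complex that DYRK1A phosphorylates, was at 16.1 and 8.34 FPKM (-0.94), and the cyclin CCND1 at 75.7 and 40.3 FPKM (-0.91).

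**Figure D5:**
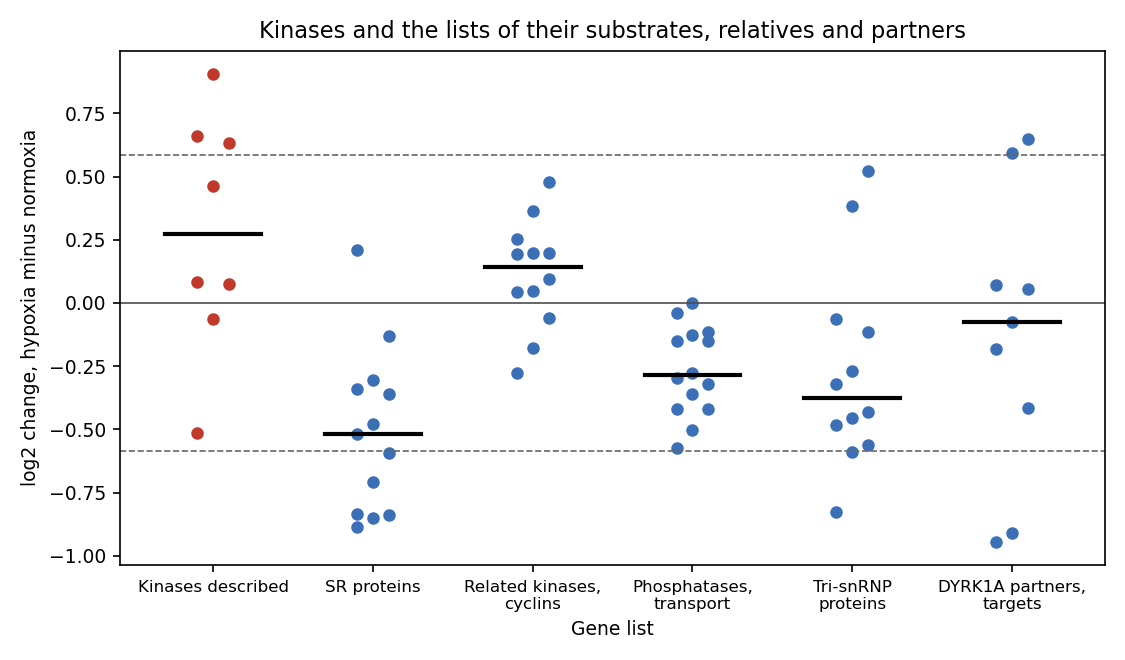
Each point is 1 gene with a mean of at least 0.5 FPKM, plotted by its log2 change of summed FPKM + 0.1 (hypoxia minus normoxia) in the kinase group (red) and in 5 lists of substrates, relatives and partners (blue); black bars are medians and dashed lines mark 1.5-fold. The median is 0.27 for the kinases, -0.52 for the SR proteins, 0.14 for the related kinases and cyclins, -0.29 for the phosphatases and transport factors, -0.38 for the tri-snRNP proteins and -0.07 for the partners and targets of DYRK1A.

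The labels of condition and cell type were checked against genes outside the group. All 9 listed genes of the hypoxia response were past 1.5-fold higher, with log2 changes from 1.02 for VEGFA to 5.58 for NDRG1 and a median of 2.83. Of 8 squamous and epithelial markers, 7 were analysed, with 1 of them past 1.5-fold lower (KRT6A, at 5.10 and 3.26 FPKM) and 0 higher. KRT5 (398 and 442 FPKM), TP63 (42.8 and 44.6 FPKM) and DSG3 (16.4 and 12.8 FPKM), which mark squamous cells, and EPCAM (317 and 233 FPKM), which marks epithelium in general, were present in both conditions. Of 7 markers of other cells, 3 were analysed: CD68 was at 2.36 and 2.86 FPKM, ACTA2 at 7.57 and 8.62 FPKM and COL3A1 at 0.0489 and 0.107 FPKM. Their part in the kinase values was not tested.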

How the data were processed

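RNA was poly(A)-selected from 8 samples of SQ20B cells, 4 per condition, made into strand-specific libraries and sequenced by the study. The authors aligned reads to hg19 with STAR 2.3.0.1 and used Cufflinks 2.1.1 with RefSeq annotation and standard parameters; how strand was used in counting is not given in the sources used here. The deposited table holds 1 FPKM value per transcript and condition, the authors' value over the replicates. FPKM divides fragments by transcript length and mapped reads, so reads shared by transcripts of a gene are divided by a model. The FPKM columns carry no counts, depth or replicate error, so no interval or p-value was computed from them. The table also holds the authors' own comparison over the replicates (log2 fold change, test statistic, p-value and q-value columns). These columns were not used, so that every value given here was computed from the FPKM columns.

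Gene symbols were paired with transcript identifiers through RefSeq names (24293 of 24812, 97.9%), and FPKM was summed per gene. Changes are log2(FPKM + 0.1), hypoxia over normoxia, for a mean of at least 0.5 FPKM, and 1.5-fold was the line for a count. The planned limma test needed a value per replicate and was not run. PRPF4B was matched through a synonym in the promoter table. Starts in the table count from 0 and are printed 1-based.

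All 8 kinases are named with every transcript; from each list, the 3 largest rises and falls past 1.5-fold are named. The kinases, lists and settings were chosen with earlier results of these data known. Not analysed here, from the lists, were SRSF12, SRPK3, HIPK4, HSPA8, NFATC1, NFATC2, NFATC4, MAPT, LDHA, KRT14, PTPRC, CD3E, PECAM1 and COL1A1. Pseudogenes of CLK2, CLK3, SRPK2 and PRPF4B, and any genes that overlap the kinase genes, could share reads with them. The calculations were made with Python 3.11.15, numpy 2.4.6 and pandas 2.3.3, and were tested on simulated data. The differences put into those data were larger than those of the kinases, so recovery of smaller ones was not tested.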

Additional observations from a re-analysis of the deposited data

How the results depend on the processing

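No paired analysis was possible because the table has 1 value per condition, and for the same reason no replicate could be left out. The count of 3 kinase genes past 1.5-fold higher was unchanged with 1 or 0 in place of 0.1 added, with no filter or a mean of at least 1 FPKM, and with median centring or quantile normalization. It was 4 with equal sums or at 1.2-fold, 2 with coding transcripts only and 0 at 2-fold; 1 gene, SRPK1, was past 1.2-fold lower. Over all genes, 23.8% were higher and 33.0% lower at 1.2-fold, and 3.21% and 2.62% at 2-fold, so 0 of 8 at 2-fold is close to that share. The median change of the 8 kinases, 0.27 as reported, was 0.24 with 1 added, 0.28 with 0 added, 0.50 with equal sums, 0.34 with median centring, 0.34 with quantile normalization and 0.24 with coding transcripts only. Kinase transcripts past the line higher numbered 6 with equal sums, 7 at 1.2-fold and 0 at 2-fold; lower, they numbered 0 with 1 added, with equal sums, median centring and quantile normalization and at 2-fold, and 2 at 1.2-fold. The share over all transcripts was not computed under these settings, so these transcript counts cannot be set beside it. Over the 5 lists, the 2 genes higher became 5 with equal sums, 6 at 1.2-fold and 0 at 2-fold. The 10 lower became 7 with equal sums, 31 at 1.2-fold and 0 at 2-fold. With equal sums, 18.3% of all genes were higher and 4.94% lower. Counting NR_027856 alone, the noncoding share of CLK1 was 47.3% in normoxia and 56.1% in hypoxia. PRPF4B turned from -0.06 to 0.16 with equal sums, 0.01 with median centring and 0.08 with quantile normalization. The cause of these shifts was not tested beyond the construction of each setting.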
